A study of Mus musculus with 7 samples.

Results

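The genes described here are 45 mouse genes of DNA replication and S phase, out of 49315 genes with deposited counts. They were taken as a list of symbols, from origin licensing over origin firing and DNA synthesis to the supply of deoxynucleotides, copying of chromatin and entry into S phase. The rule uses no measured value, but the list was drawn up with earlier results of these data known. All 45 were found in the count tables. RNA was sequenced from primary oligodendroglia of newborn mouse brain, P0 to P3, of both sexes. The 4 control libraries came from wildtype pups (Klf13-wt) and the 3 knockout libraries from pups with a constitutive deletion of Klf13 (Klf13-ko), a Krüppel-like transcription factor. In both groups, oligodendrocyte precursor cells (OPCs) were shaken off mixed glial cultures, depleted of microglia and switched for 6 days from growth factors to SATO medium with the thyroid hormones T3 and T4, which starts differentiation. The knockout is present in every cell of the pup from the beginning, so that the mixed glial cultures from which the OPCs were shaken off carried it as well. Each library is 1 bulk culture, named a biological replicate in the labels, which do not say what cultures of the same number share. P-values therefore measure the spread between these cultures.

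Replication starts when the origin recognition complex, Cdc6 and Cdt1 load the ring-shaped Mcm2 to Mcm7 helicase onto DNA in G1, which licenses an origin. In S phase, Mcm10, Cdc45 and the GINS complex turn the helicase on, DNA polymerase alpha with its primase lays down primers, and polymerases delta and epsilon copy the strands while held by the Pcna clamp. Most of these genes are E2F targets, switched on at the G1/S transition, and their transcripts fall when OPCs leave the cell cycle to become oligodendrocytes.

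The depth of the libraries ran from 24507471 to 59596479 counts on genes, and the test covered 18352 genes that passed the filter on low counts. For Klf13, the targeted gene, the 4 controls gave 10915, 11769, 11999.5 and 10669.9 normalized counts and the 3 knockouts 802, 876 and 961, a log2 fold change of -3.69. Normalized counts are counts scaled to a common library size. Transcripts of oligodendrocyte markers were present in all libraries, and the summed level of 10 oligodendrocyte markers was 25938 to 29799 CPM (counts scaled to a common total) in controls and 7859 to 9008 in knockouts, with 8 of 10 lower in the test. Of 8 OPC markers 2 were higher (2384 to 2753 against 2920.4 to 3248 CPM), of 8 astrocyte markers 7 (2265 to 3145 against 4472 to 5263 CPM), and of 9 neuron markers all 8 that were tested (128 to 213 against 355 to 527 CPM). Another 2 OPC markers had a negative log2 fold change, and none was lower in the test. Beside the marker counts in this paragraph, 12.2% of all tested genes were lower and 11.6% higher. None of 8 microglia markers passed the test (464 to 2043 against 467 to 976 CPM). Fibroblast and mural cell markers, of which 1 of 8 was lower, summed to 281 to 1307 CPM in controls, with control replicates 3 and 4 highest, and to 124 to 291 CPM in knockouts. Endothelial markers stayed at 10.4 to 25.6 against 9.15 to 12.9 CPM, with 1 of the 4 tested lower, and Cldn5 had no count in 6 of the 7 libraries. The neuron marker Slc17a7 had no count in 1 knockout. The part of these other cells in the results was not tested. In bulk RNA, fewer cells in cycle and less RNA of these genes per cell cannot be told apart. Genes that collect ribosomal RNA took 6.03% to 17.951% of the counts, with libraries of both groups above and below 10%.

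Most replication genes were lower in the knockout. Of the 45 genes, all of which passed the filter on low counts, 43 had a negative log2 fold change and 2, Rfc3 and Pold3, a positive one. In edgeR's quasi-likelihood test, 28 of 45 were lower and 0 were higher at an adjusted p of at most 0.05, against 12.2% of all tested genes lower and 11.6% higher. The count of higher members was also 0 in DESeq2, in limma voom and at an unadjusted p of 0.05 in edgeR, whereas 34 were lower at that unadjusted p. The median log2 fold change was -0.39, with a range from -0.90 (Pole) to 0.12 (Rfc3), beside a median of -0.00 over all tested genes. Knockout means stood between 53.8% and 108% of the control means. No member reached a log2 fold change of -1 or of 1, by edgeR, DESeq2 or limma voom, compared with 3.08% of all genes that were lower and 3.97% that were higher past that size. In 31 members all 3 knockouts lay below all 4 controls, and in 0 all lay above, where 18.0% and 18.3% of all tested genes were separated in these directions. The 31 were the 28 that passed the test together with Cdt1, Pole2 and Tyms.

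**Figure D1:**
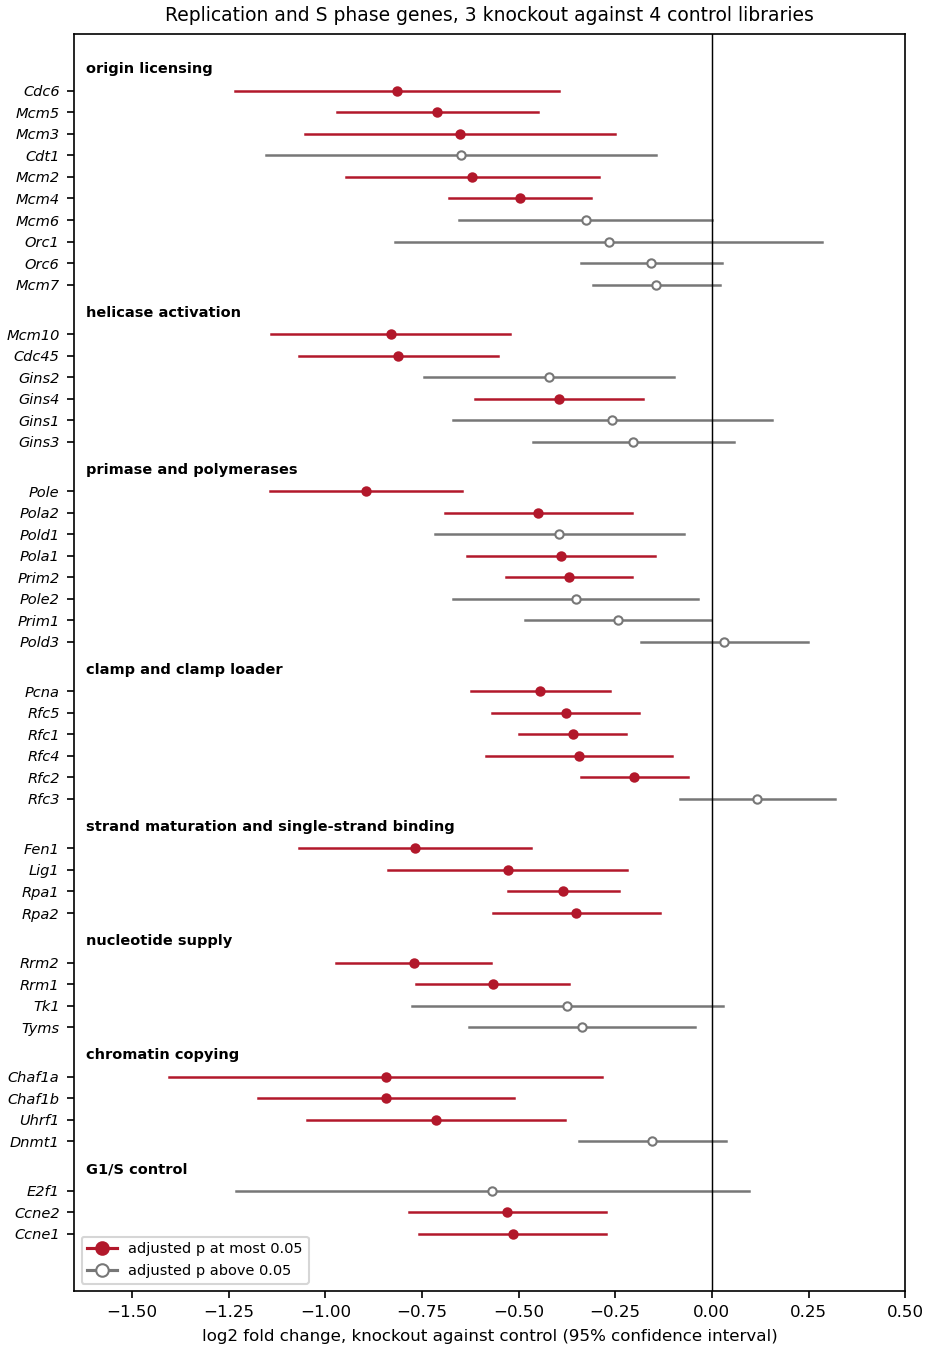
Log2 fold change of each of the 45 genes, knockout against control (x axis), with its 95% confidence interval as a line, grouped by role. Filled red points passed an adjusted p of 0.05 in edgeR (28 genes), open grey points did not, and only Rfc3 and Pold3 lie to the right of 0.

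The shift was present in each library. With every gene centred on its mean over libraries, control replicates 1 to 4 had a mean log2 level over the 45 genes of 0.15, 0.26, 0.29 and 0.08, and knockout replicates 1 to 3 one of -0.23, -0.37 and -0.18. Summed over the list, the level was 1298, 1396, 1417 and 1244 CPM in controls and 1022, 942 and 1036 in knockouts, so that the highest knockout stood below the lowest control on both measures. Knockout replicate 2 had the lowest value of all 7 libraries in 30 of the 45 genes, and control replicates 2 and 3 had the highest in 17 each. Within the controls, replicate 4 was lowest in 27 genes. The share of counts on the genes that collect ribosomal RNA was below 10% in control replicates 2 and 3 and knockout replicate 2. Among the 4 libraries above 10%, the knockouts differed from the controls by -0.32 in the mean level, with 33 members lower in both knockouts than in both controls and 0 higher in both, where 28.7% and 31.2% of all tested genes were separated in these directions. Among the 3 libraries below 10%, the difference was -0.65, with 44 members lower in the only knockout than in both controls and 1, Rfc3, higher, where this held for 39.4% and 40.5% of all tested genes. The part of that share in the values was not tested.

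The number of calls depended on the libraries used. It was 15 of 45 without knockout replicate 1 and also 15 without knockout replicate 2, while the share of all genes that were lower fell to 6.58% and 7.08%. It was 22 without knockout replicate 3, with 8.12% of all genes lower, and 21 to 24 with any control left out, with 8.97% to 11.1%. Without control replicates 3 and 4, the libraries with the most fibroblast and mural cell transcripts, 19 members were lower, beside 7.91% of all genes, and Pole then reached a log2 fold change of -1.01. A core of 12 genes, Mcm4, Mcm5, Mcm10, Cdc45, Pole, Pcna, Rfc1, Fen1, Rpa1, Rrm1, Rrm2 and Chaf1b, was lower in the test with each library left out and under each other alternative tried, and the call of each of the other 16 was lost under 1 to 14 of them. These were 1 for Prim2, Ccne1 and Ccne2, 2 for Cdc6, Pola2 and Uhrf1, 3 for Mcm2, 5 for Mcm3, Gins4 and Lig1, 6 for Rfc5, 8 for Pola1, 9 for Chaf1a, 12 for Rpa2, 13 for Rfc4 and 14 for Rfc2. Across the list, 43 members kept a negative sign under each of the 17 alternatives.

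**Figure D2:**
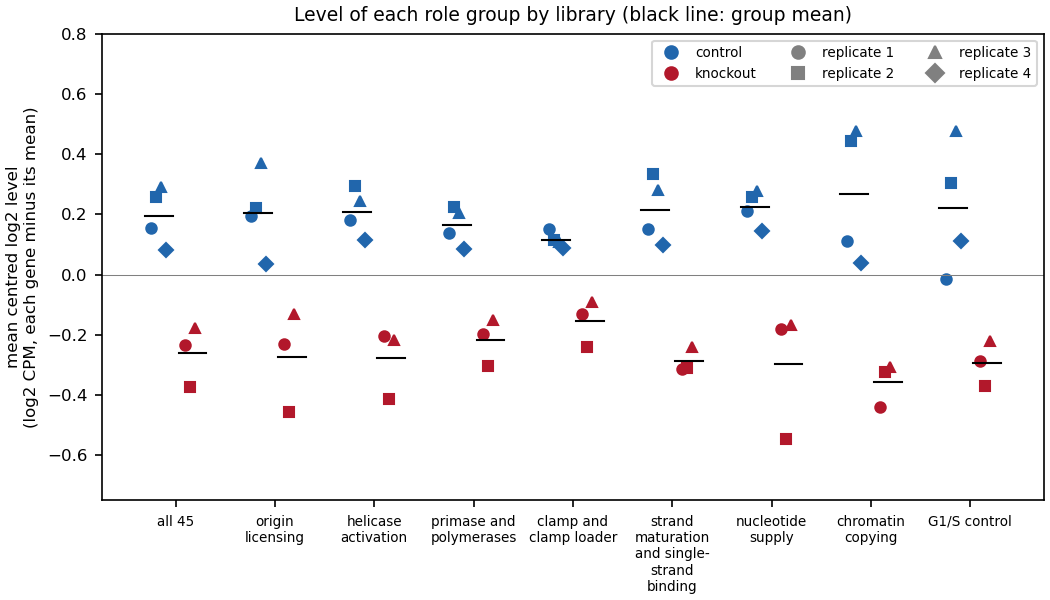
Mean centred log2 level (y axis, log2 CPM with each gene minus its mean over libraries) for all 45 genes and for each role group (x axis). Each symbol is 1 library (blue control, red knockout, shape by replicate number) and black lines are group means. In all columns the 3 knockouts lie below the 4 controls.

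Promoters are shown because 28 of the 45 members were lower and most are known as E2F targets. A RefSeq table (GRCm38.p6) listed promoters, 250 bases before to 50 bases after the start of transcription, for 37 of the 45 genes. Gins1, Gins2, Gins4, Rfc2, Ccne2, Mcm4, Pole and Prim2 are without one. The stretches below run 5′ to 3′ from 170 bases before to 30 bases after the start. In each role group the gene with a listed promoter and the lowest log2 fold change was looked at, and those whose stretch held a match are shown, together with Rfc3 and Pold3, the 2 members with positive values. Capitals mark the E2F motif (TTTCCCGC or TTTGGCGC) and the CCAAT box (CCAAT) on either strand.
Cdc6, chr11:98907981-98908180, plus strand: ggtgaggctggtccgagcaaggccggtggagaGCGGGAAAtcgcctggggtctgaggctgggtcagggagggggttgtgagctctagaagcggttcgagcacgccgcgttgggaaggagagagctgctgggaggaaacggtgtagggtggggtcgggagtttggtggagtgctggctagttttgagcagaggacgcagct
Mcm10, chr2:5012762-5012961, minus strand: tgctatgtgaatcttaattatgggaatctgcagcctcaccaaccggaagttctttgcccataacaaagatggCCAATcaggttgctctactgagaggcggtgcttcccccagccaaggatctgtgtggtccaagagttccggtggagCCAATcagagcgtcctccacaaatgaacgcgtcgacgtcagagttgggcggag
Pcna, chr2:132253151-132253350, minus strand: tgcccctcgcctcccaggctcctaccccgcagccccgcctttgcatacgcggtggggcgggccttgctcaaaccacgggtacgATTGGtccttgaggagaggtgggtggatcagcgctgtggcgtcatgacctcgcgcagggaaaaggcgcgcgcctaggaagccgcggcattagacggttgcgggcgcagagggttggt
Rrm2, chr12:24708084-24708283, plus strand: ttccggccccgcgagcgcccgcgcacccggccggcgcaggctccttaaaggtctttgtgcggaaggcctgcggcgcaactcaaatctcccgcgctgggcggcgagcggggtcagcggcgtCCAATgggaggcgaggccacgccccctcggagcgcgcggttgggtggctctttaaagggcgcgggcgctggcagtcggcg
Chaf1a, chr17:56040246-56040445, plus strand: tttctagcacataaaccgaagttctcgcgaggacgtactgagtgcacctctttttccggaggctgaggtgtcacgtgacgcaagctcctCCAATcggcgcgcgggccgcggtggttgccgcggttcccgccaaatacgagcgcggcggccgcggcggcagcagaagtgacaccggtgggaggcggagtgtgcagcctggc
Rfc3, chr5:151651179-151651378, minus strand: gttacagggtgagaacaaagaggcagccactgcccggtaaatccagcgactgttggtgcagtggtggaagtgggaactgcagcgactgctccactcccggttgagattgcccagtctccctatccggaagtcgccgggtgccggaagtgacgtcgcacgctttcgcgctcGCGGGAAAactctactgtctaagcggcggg
Pold3, chr7:100121473-100121672, minus strand: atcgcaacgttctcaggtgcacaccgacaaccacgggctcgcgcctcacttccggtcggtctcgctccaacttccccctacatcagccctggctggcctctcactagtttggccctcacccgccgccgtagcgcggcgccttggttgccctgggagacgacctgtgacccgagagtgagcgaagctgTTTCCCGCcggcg
In these stretches Cdc6, Rfc3 and Pold3 hold an E2F match, and Mcm10, Pcna, Rrm2 and Chaf1a hold CCAAT boxes. The corresponding stretches of Pola2, Fen1 and E2f1 held neither motif, which says only that these letters are not in this window. In the stretches shown, too, only these exact letters are marked, and other forms of the motifs were not searched.

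Of the 37 genes with a listed promoter, 13 (35.1%) held an E2F match in the 300 bases, compared with 1.80% of all 27025 genes of the table and 3.16% of the 12286 of these genes that were also tested here. With the 250 bases before the start alone, 6 of 37 (16.2%) held one, compared with 1.51% of all genes and 2.64% of tested genes. CCAAT boxes stood in 22 of 37 (59.5%), compared with 41.1% of all and 42.5% of tested genes. The cell cycle homology region, TTTGAA or TTCGAA, stood in 7 (18.9%), against 21.7% and 16.3%. Motifs bound by Klf proteins (ACGCCC or ACACCC or ACTCCC or CCGCCC or CCACCC or CCTCCC) stood in 35 (94.6%), against 78.1% and 92.1%, on promoters with a median GC content of 60.7% in members and 60.3% in tested genes. Motifs were searched on both strands, no motif contains another, and matches of different motifs can share bases. Within the list, 4 of the 22 genes that were lower and 9 of the 15 that did not pass the test held an E2F match. With the 250 bases before the start alone, these were 3 of 22 and 3 of 15. Only the exact letters count as a match, so that genes without one may hold other forms of an E2F site. Dnmt1 holds its match in the promoter at chr9:20952574-20952873 and not in its other listed promoters. In the 300 bases, the median log2 fold change was -0.35 for the 13 genes with a match (-0.81 to 0.12) and -0.48 for the 24 without (-0.84 to -0.16). Rfc3 and Pold3 hold their E2F matches at base 1 and base 18 from the start, and not in the 250 bases before it. These are descriptions of letters in a window, and binding was not measured in these libraries.

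**Figure D3:**
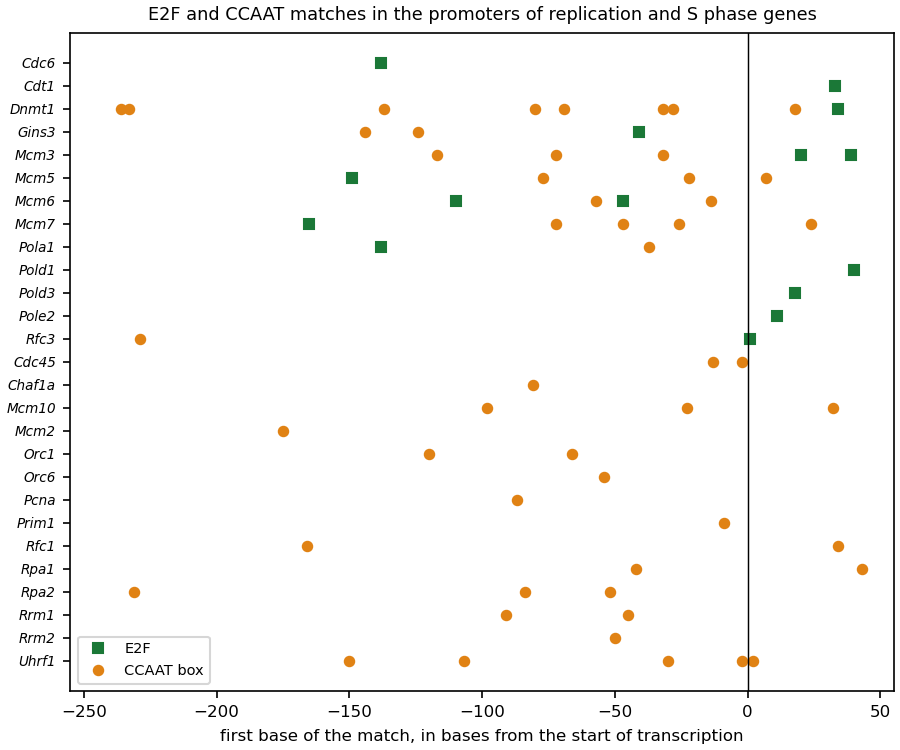
Position of E2F (green squares) and CCAAT (orange circles) matches in the promoters of the 27 genes that hold at least 1 of them, 8 of which hold both. The x axis gives the first base of the match in bases from the start of transcription (black line).

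Of the 10 origin licensing genes 5 were lower, and the median log2 fold change was -0.56. Cdc6, the ATPase that brings the helicase to the origin recognition complex, was the lowest. It had 284, 327, 334 and 295 normalized counts in controls and 188, 131 and 211 in knockouts. All knockouts lay below all controls, with a log2 fold change of -0.81 (95% confidence interval -1.23 to -0.40, adjusted p = 0.0172). Its partner Cdt1 had 478 ± 113 in controls (SD, n = 4) and 304 ± 63.7 in knockouts (n = 3), a log2 fold change of -0.65. This missed the threshold (adjusted p = 0.0672) and passed it with the replicate number as a block (-0.75, adjusted p = 0.0084, with 0.0084 to 0.198 over all alternatives). For Orc1, the largest subunit of the origin recognition complex and the member with the lowest level per length, the value was -0.27 (adjusted p = 0.472), and for Orc6 it was -0.16 (adjusted p = 0.193), with groups that overlapped. The value of Orc1 ran from -0.43 to -0.06 over all alternatives, and its control replicate 1 was the highest of all libraries, at 158 normalized counts.

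The 6 subunits of the Mcm2 to Mcm7 ring form a complex with 1 copy of each, and the log2 fold changes of their transcripts ran from -0.71 to -0.14. Mcm5 fell from 543 to 332 normalized counts per kilobase of exon, a log2 fold change of -0.71 (adjusted p = 0.0053). Mcm3 (-0.65, adjusted p = 0.0320), Mcm2 (-0.62, adjusted p = 0.0189) and Mcm4 (-0.50, adjusted p = 0.0056) fell as well, with no overlap between the groups. Mcm4 and Mcm5 passed under all 17 alternatives, whereas Mcm2 did not pass with any of the knockouts left out (adjusted p up to 0.0640) and Mcm3 did not under 5, among them the ribosomal RNA covariate (adjusted p up to 0.100). Mcm2 had 1504, 2029, 2039 and 1454 normalized counts in controls and 1165, 1155 and 1109.7 in knockouts, so that the knockouts were close together and the controls spread into a higher and a lower pair. Mcm6 did not pass (-0.33, adjusted p = 0.138), and its knockout replicate 3 lay within the control range. With the block it passed (-0.38, adjusted p = 0.0278, with 0.0278 to 0.352 over all alternatives). Mcm7 had the highest level per length of the 6, on average 641 normalized counts per kilobase, and the smallest difference. Its normalized counts were 3057, 3079, 3076 and 2621 in controls and 2692, 2601 and 2735 in knockouts. Only control replicate 4 lay among the knockouts, and the log2 fold change was -0.14 (95% confidence interval -0.31 to 0.02, adjusted p = 0.185). Exons of Mcm7 overlap the microRNA genes Mir25 and Mir93 on its own strand. Whether the subunits differed from each other in their change was not tested. The number of licensing genes that were lower was 2 without knockout replicate 1 and 3 without knockout replicate 2, and 7 with the block.

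**Figure D4:**
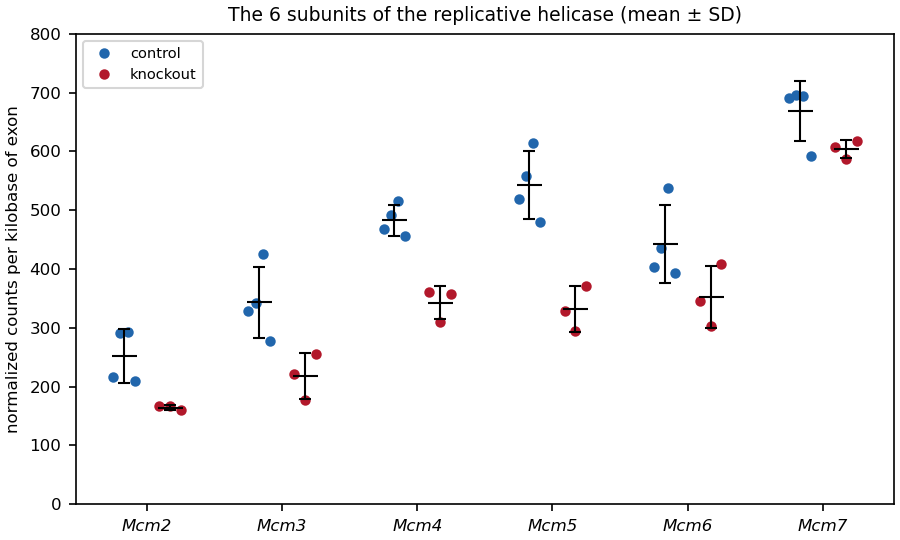
Normalized counts per kilobase of exon (y axis) of the 6 helicase subunits in each control (blue) and knockout (red) library, with mean and SD in black. Knockouts and controls are separated for Mcm2, Mcm3, Mcm4 and Mcm5 and overlap for Mcm6 and Mcm7.

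Among the 6 genes of helicase activation, 3 were lower and the median log2 fold change was -0.41. Mcm10, which helps the loaded helicase to start unwinding, had 451, 481, 474 and 418 normalized counts in controls and 279.8, 210.3 and 280.3 in knockouts. The groups were far apart, with a log2 fold change of -0.83 (95% confidence interval -1.14 to -0.52, adjusted p = 0.0056). Cdc45, which with GINS completes the active helicase, went from 494 ± 34.7 to 282 ± 28.5 normalized counts (-0.81, adjusted p = 0.0032). The 4 subunits of GINS had values closer to 0. Gins4, the member of this group with the highest level per length (821 normalized counts per kilobase), had 1164, 1261, 1277 and 1235 normalized counts in controls and 1045, 957 and 817 in knockouts. It was lower in all 3 (-0.39, adjusted p = 0.0220), but not in the test with the block (adjusted p = 0.0587, with 0.0055 to 0.0991 over all alternatives). Gins3, with the smallest difference of the group, had 296, 269, 281 and 247 in controls and 224, 234 and 253 in knockouts, with overlap (-0.20, adjusted p = 0.236). Gins2 (-0.42, adjusted p = 0.0647) and Gins1 (-0.26, adjusted p = 0.347) did not pass in edgeR either, and Gins2 passed in DESeq2 (adjusted p = 0.0240, with 0.0240 to 0.248 over all alternatives). The log2 fold change of Gins1 ran from -0.40 to -0.12 over all alternatives. Without knockout replicate 2 or 3 the number of genes lower in this group was 2.

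Primase and polymerase genes included the lowest member of the list. Pole encodes the catalytic subunit of polymerase epsilon, the leading strand enzyme. It had 807, 799, 699.5 and 671 normalized counts in controls and 424, 364 and 414 in knockouts. Every knockout stood well below every control, with a log2 fold change of -0.90 (95% confidence interval -1.14 to -0.65, adjusted p = 0.0018). Pole2, the second subunit of the same enzyme, had 185, 183, 177 and 194 in controls and 152, 123 and 159.9 in knockouts. All 3 knockouts were lower, but the change did not pass the test (-0.35, adjusted p = 0.103). It passed with the share of ribosomal RNA as covariate (adjusted p = 0.0461, with 0.0461 to 0.284 over all alternatives). Per length, the ratio of Pole2 to Pole was 1.51, 1.51, 1.67 and 1.90 in controls and 2.35, 2.23 and 2.55 in knockouts. The ratio was higher in all knockouts, by 0.53 on the log2 scale (exact two-sided permutation p = 0.0571, the smallest that 4 against 3 libraries allow, and 0.114 adjusted over 4 ratios).

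The polymerase alpha-primase complex, which starts each Okazaki fragment, was lower in 3 of its 4 subunits. Pola2, its regulatory subunit and the member of this group with the highest level per length, had 679, 688, 766 and 608 normalized counts in controls and 484, 474 and 547 in knockouts, without overlap (-0.45, adjusted p = 0.0207). Pola1, the catalytic subunit (-0.39, adjusted p = 0.0334), and Prim2, the large primase subunit (-0.37, adjusted p = 0.0100), were lower too, and the small primase subunit Prim1 did not pass (-0.24, adjusted p = 0.132). The call of Pola1 was lost under 8 of the 17 alternatives (adjusted p of 0.0041 to 0.0988), among them upper quartile scaling and leaving out any single control, knockout replicate 1 or knockout replicate 2. Of polymerase delta, the lagging strand enzyme, the catalytic subunit Pold1 had a log2 fold change of -0.39 (adjusted p = 0.0777), which passed with the block (-0.47, adjusted p = 0.0162, with 0.0162 to 0.222 over all alternatives). Its accessory subunit Pold3 had 698, 779, 842 and 754 in controls and 731, 773 and 851 in knockouts. These groups overlapped, and the value of 0.03 (95% confidence interval -0.18 to 0.25, adjusted p = 0.835) turned to -0.023 without knockout replicate 3. In this group 4 of 8 genes were lower, with a median of -0.38, and 1 without knockout replicate 1, 2 without knockout replicate 2.

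Of the sliding clamp and the 5 subunits of its loader, all but Rfc3 were lower. Pcna, the clamp itself, was the member with the highest level per length of the whole list, 2328 normalized counts per kilobase on average. It had 6208, 6097, 6667 and 6238 normalized counts in controls and 4959.6, 4101 and 4840.1 in knockouts, and all knockouts were lower (-0.44, 95% confidence interval -0.62 to -0.26, adjusted p = 0.0076). Replication factor C, which opens the clamp around DNA, has 1 large subunit, Rfc1, and 4 small ones. Rfc1 had 3173, 3437, 3267 and 3433 in controls and 2685, 2433 and 2661 in knockouts (-0.36, adjusted p = 0.0062). Rfc5 (-0.38, adjusted p = 0.0160), Rfc4 (-0.34, adjusted p = 0.0480) and Rfc2 (-0.20, adjusted p = 0.0468) also passed the test, the latter 2 narrowly. Rfc5 had 867, 805, 793 and 854 normalized counts in controls and 646, 587 and 682 in knockouts, Rfc4 had 498, 446, 448 and 417 against 368, 325 and 375, and Rfc2 had 1774, 1840.2, 1713 and 1654 against 1565, 1484 and 1509. In all 3 the groups did not overlap. Rfc5 lost its call under 6 of 17 alternatives (adjusted p up to 0.0699), among them upper quartile scaling and leaving out either of control replicates 1 and 4 or knockout replicates 1 and 2. With the block, Rfc4 (adjusted p = 0.0612) and Rfc2 (adjusted p = 0.0671) did not pass, and both were lost with any library left out. Over all alternatives the adjusted p was 0.0122 to 0.152 for Rfc4 and 0.0260 to 0.220 for Rfc2. Rfc3 had the only positive value of the group. Its 567, 523, 532 and 519 normalized counts in controls and 531, 588 and 620.0 in knockouts overlapped, and the log2 fold change was 0.12 (95% confidence interval -0.08 to 0.32, adjusted p = 0.378). Per length, Rfc1 relative to the mean of the 4 small subunits was 2.22 to 2.65 in controls and 2.20 to 2.30 in knockouts, a log2 difference of -0.14 (exact two-sided permutation p = 0.114, adjusted 0.152). The median over the 6 genes was -0.35. The number lower, 5, was 2 or 3 with any library left out, 2 with upper quartile scaling and 3 with the block.

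All 4 genes of Okazaki fragment maturation and single-strand binding were lower, with a median of -0.46. Fen1, the nuclease that trims the flap left by the previous primer, was the lowest. It had 279, 362, 331 and 315 normalized counts in controls and 175, 206 and 186 in knockouts (-0.77, 95% confidence interval -1.07 to -0.47, adjusted p = 0.0066). Lig1, the ligase that seals the nick, fell from 1661 ± 256 to 1151 ± 108 (-0.53, adjusted p = 0.0268), a call lost under 5 of 17 alternatives (adjusted p up to 0.0978), among them total count scaling and the ribosomal RNA covariate. Replication protein A coats the unwound strand. Its large subunit Rpa1, with 612 normalized counts per kilobase the highest level per length of the group, had 3825, 4089, 3741 and 3511 normalized counts in controls and 2879.7, 2946 and 2885 in knockouts. The knockouts were nearly equal and all below the controls (-0.38, adjusted p = 0.0057). Rpa2 had 886, 950.2, 894 and 868 in controls and 766, 617 and 736 in knockouts (-0.35, adjusted p = 0.0321), and did not pass with the block (adjusted p = 0.0710, with 0.0037 to 0.0870 over all alternatives). Without control replicate 2, knockout replicate 1 or knockout replicate 2 in turn, and with total count scaling, 2 of the 4 genes were lower.

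For the supply of deoxynucleotides, the ribonucleotide reductase genes were lower. Rrm2, the small subunit whose level is known to follow S phase, had 2082, 2235, 2080.3 and 1982 normalized counts in controls and 1293, 1079 and 1311 in knockouts. The groups lay far apart (-0.77, 95% confidence interval -0.97 to -0.57), with the lowest adjusted p of the list (0.0014). Rrm1, the large subunit, had 4566, 4826, 4601 and 4474 in controls and 3489.9, 2732 and 3137 in knockouts (-0.57, adjusted p = 0.0046). Per length, the ratio of Rrm2 to Rrm1 was 1.76 to 1.84 in controls and 1.47, 1.57 and 1.66 in knockouts. It was lower in all 3 knockouts, by 0.20 on the log2 scale, at the smallest p this design allows (exact two-sided permutation p = 0.0571, adjusted 0.114). Thymidylate synthase, Tyms, had 428, 428, 456 and 439 in controls and 397, 285 and 360.2 in knockouts, without overlap but above the threshold in edgeR (-0.34, adjusted p = 0.0935). It passed in DESeq2 (adjusted p = 0.0408, with 0.0408 to 0.272 over all alternatives). Thymidine kinase, Tk1, had 525 ± 53.1 and 405 ± 96.7 (-0.37, adjusted p = 0.164, with log2 fold changes of -0.56 to -0.21 over all alternatives). In this group 2 of 4 genes were lower, with a median of -0.47, also with any library left out.

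Of the genes that copy chromatin, 3 of 4 were lower, with a median of -0.78. Chaf1a and Chaf1b encode subunits of chromatin assembly factor 1, which places histones behind the fork. Chaf1a had 577, 1043, 1009 and 638 normalized counts in controls and 429.7, 525 and 409 in knockouts. Control replicates 2 and 3 were well above replicates 1 and 4, and the confidence interval was the widest of the called members, -1.40 to -0.28 around -0.84 (adjusted p = 0.0411). Its call was lost under 9 of the 17 alternatives (adjusted p of 0.0062 to 0.121), among them limma voom, total count scaling, no filter on low counts and leaving out control replicate 2, control replicate 3 or any knockout. Chaf1b changed by the same amount with less spread, from 321 ± 30.2 to 178 ± 26.5 (-0.84, adjusted p = 0.0068). Uhrf1, which reads hemimethylated DNA and recruits Dnmt1, fell from 1232 ± 206 to 751 ± 71.3 (-0.71, adjusted p = 0.0124). Dnmt1, the maintenance methyltransferase, had the highest level per length of the group (602 normalized counts per kilobase). It had 4523, 5101, 4832 and 4129.8 in controls and 4029.7, 4434 and 4058 in knockouts, which overlapped (-0.15, adjusted p = 0.219). Only Chaf1b remained past the threshold without knockout replicate 1 and without knockout replicate 2.

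The genes of G1/S control included both E cyclins, which activate Cdk2. Ccne1 had 388, 461, 425 and 408 normalized counts in controls and 305, 271 and 307 in knockouts (-0.52, adjusted p = 0.0127). Ccne2 had 686, 761, 784 and 795 in controls and 585, 452 and 539 in knockouts (-0.53, adjusted p = 0.0140). Both were separated between the groups, and the ratio of Ccne2 to Ccne1 per length was 1.26 to 1.48 in controls and 1.27 to 1.46 in knockouts. That log2 difference of -0.02 (exact two-sided permutation p = 0.8) changed sign with the libraries used. E2f1, the transcription factor that drives this gene program and is its own target, had 348, 515, 775 and 371 in controls and 292, 359 and 363 in knockouts. The controls spread more than 2-fold, with replicate 3 highest, and overlapped with the knockouts (-0.57, 95% confidence interval -1.23 to 0.10, adjusted p = 0.197, with log2 fold changes of -0.69 to -0.28 over all alternatives). Without knockout replicate 2, and without control replicates 3 and 4 together, 1 of the 3 genes was lower instead of 2.

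Across the 45 genes, Spearman's rho between level per kilobase and log2 fold change was 0.14 and Pearson's r on the log2 level was 0.18, given as a description over genes of the same 7 libraries. Levels ran from 30.5 normalized counts per kilobase for Orc1 to 2328 for Pcna. For 14 members exons overlap those of a gene on the opposite strand, and for Mcm7, Pole2 and Rpa1 those of a gene on the same strand. The strand setting of the counting is not given in the sources used here, so that values of these genes are less certain.

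A second list held 46 other replication factors. Of these 20 were lower and 1 was higher, beside 12.2% and 11.6% of all tested genes, with a median log2 fold change of -0.29. Among the lowest were Clspn, the adaptor that activates the checkpoint kinase Chk1 at stalled forks (-1.05, adjusted p = 0.0025), and Chtf18, a subunit of an alternative clamp loader (-1.003, adjusted p = 0.0062). Clspn had 816, 966, 887 and 708 normalized counts in controls and 392, 368 and 461 in knockouts, and Chtf18 had 334, 502, 485 and 384 against 215, 222 and 201. Both genes were separated between the groups. Cdca7, a cofactor of the chromatin remodeler Hells and a known target of E2F and Myc, went the other way. It had 398, 429, 374 and 226 in controls and 776, 863 and 807 in knockouts, all above the controls (1.19, 95% confidence interval 0.72 to 1.67, adjusted p = 0.0073). Hells itself was lower (-0.72, adjusted p = 0.0162), a gene added here because of its link to Cdca7 after its value was seen. The next highest, Pole4 (0.21, adjusted p = 0.156) and Orc3 (0.13, adjusted p = 0.174), overlapped between the groups. Pole4 had 1036, 1266, 1306 and 1136 in controls and 1399, 1457 and 1273 in knockouts, and Orc3 had 1935, 1878, 1798 and 1874 against 2060.0, 1909.5 and 2194.

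Among 16 genes of the E2F and Rb families and S phase kinases, 5 were lower and 0 higher, beside the same 12.2% and 11.6% of all genes (0 also at an unadjusted p of 0.05 in edgeR, and 0 by DESeq2 and limma voom), with a median of -0.18. E2f7, a repressor induced in S phase, had 361, 357, 378 and 330.4 normalized counts in controls and 200.4, 132 and 193 in knockouts (-1.03, adjusted p = 0.0057). Ccna2, the cyclin of S phase and G2, fell from 2517, 2543, 2424 and 2294 to 1448, 1106 and 1413 (-0.89, adjusted p = 0.0017), and the activator E2f2 from 288, 345, 335 and 236 to 164, 177 and 165 (-0.83, adjusted p = 0.0101). The repressive E2f4 (0.04, adjusted p = 0.800), E2f5 (0.06, adjusted p = 0.739) and E2f6 (0.15, adjusted p = 0.301) had overlapping groups. E2f4 had 1117, 1229.8, 1377 and 1094 in controls and 1161, 1294 and 1259 in knockouts, E2f5 had 629, 654, 613 and 666 against 744, 689 and 569, and E2f6 had 972, 1110.1, 1076 and 908 against 1062, 1238 and 1088. With the block 7 of the 16 were lower. Of 20 mitosis genes all 20 were lower, with a median of -0.79 and a range from -1.02 to -0.42. Top2a, the topoisomerase that untangles sister chromatids, fell from 8219 ± 644 to 4060.2 ± 560.1 (-1.02, adjusted p = 0.0012), and the proliferation marker Mki67 from 7093 ± 846 to 3904 ± 721 (-0.86, adjusted p = 0.0071). Whether these lists differ from the replication genes in the size of the change was not tested.

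**Figure D5:**
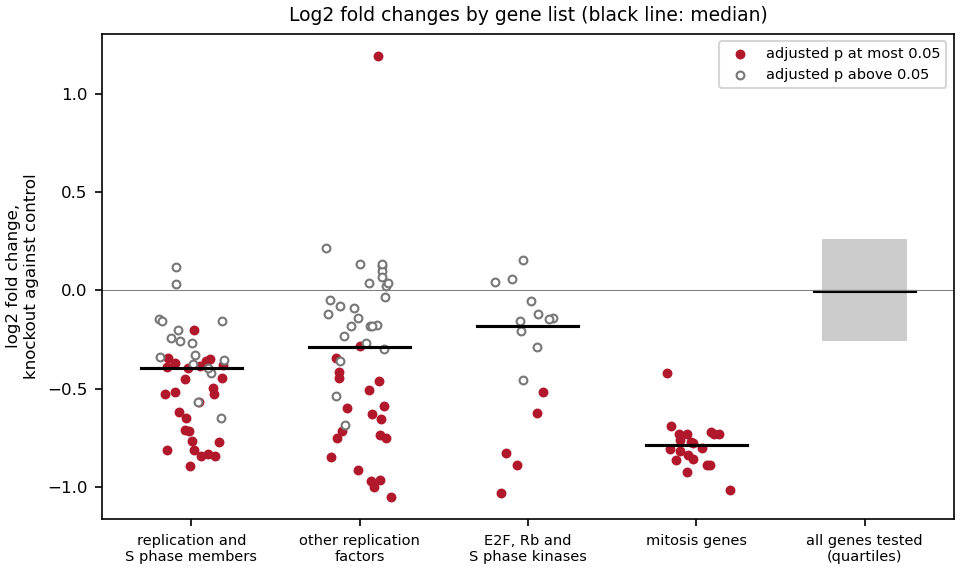
Log2 fold change, knockout against control (y axis), of each gene in the 4 lists (x axis), filled red where the adjusted p was at most 0.05 in edgeR. Black lines are medians (-0.39, -0.29, -0.18 and -0.79), and the grey bar spans the quartiles of all genes tested, -0.26 to 0.26. The point at 1.19 is Cdca7.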

How the data were processed

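RNA-seq libraries of 4 control and 3 knockout cultures were analysed. Per the labels and the submitters' processing notes, the authors trimmed reads with Trimmomatic 0.36, mapped them with STAR 2.5.2b to GRCm38 and counted unique exon hits per gene with Subread 1.5.2 (featureCounts). The deposited values are raw counts. The annotation release and strand setting are not given in the sources used here. 42 of 45 members had the same start and end in GENCODE M21.

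The test was that of edgeR 4.0.16 in R 4.3.3 (filterByExpr by group, TMM factors, robust quasi-likelihood test with the group as only term, Benjamini-Hochberg adjustment over 18352 genes). The study used DESeq2 with the Wald test, and DESeq2 was run as an alternative (1.42.0), beside limma voom (3.58.1), other size factors, upper quartile and total count scaling, other filters on low counts, the share of ribosomal RNA as covariate, a replicate block and leaving out each library. Leaving out control replicates 3 and 4 together was chosen after seeing the data. For normalized counts, each library was brought to the mean TMM-scaled size, 43945387. Kilobases are exon lengths from the count files. CPM behind levels used a prior count of 2. Intervals are 95%. 3 counts correspond to 0.0503 to 0.122 CPM per library. Ratios were compared by exact permutation tests (scipy 1.17.1). Scripts were tested on simulated data.

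Deviations from group means of libraries with the same replicate number correlated at 0.11, 0.46 and 0.17 across genes, which are not independent. Those with different numbers correlated at -0.53 to 0.20, and knockout replicate 1 correlated more with control replicate 4 (0.20) than with control replicate 1. Since all 3 same-number values were above 0.1, the number was treated as a pairing, and blocked values are given where they change a call. Knockout replicate 3 also correlated above 0.1 with control replicates 1 (0.15) and 4 (0.14), so that this rule does not set same-number libraries apart. The pairing is an assumption that the labels do not give. Control replicate 4 has no knockout of the same number and does not enter the blocked difference.

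Members and lists were chosen with earlier results of these data known. Named with full values were, in each role group, the members with the highest level per length and the lowest and highest log2 fold change and the genes of the 4 ratios, and in the lists of other replication factors and of regulators the 3 lowest and 3 highest, beside Klf13 and, by mean and SD, Mki67 and Top2a. The values of 1 of these genes are not reported here. Other experiments of the study were not analysed here.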

Additional observations from a re-analysis of the deposited data

Results flagged for a closer look

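In the controls, 65 items were looked at, which were genes, ratios of genes and the mean level of the list. Of these, 2 had 1 library far from the other 3. Chance gives about 1 in 20, so that 2 is no more than chance would give, and the values are listed only for completeness. Both were in control replicate 4. Mcm7 had 2621 normalized counts there, against 3057, 3079 and 3076 in the other controls, and Pola1 had 859, against 913, 907 and 909.9.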

How the results depend on the processing

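Of the 45 genes, 28 were lower in edgeR (beside 12.2% of all genes), 31 in DESeq2 (7.86%), 27 in limma voom (12.2%), 28 with DESeq2's size factors (12.4%), 23 with upper quartile (9.50%) and 22 with total count scaling (9.35%, both of which moved the median of all genes by 0.04 on the log2 scale), 25 without a filter on low counts (5.53%), 26 with at least 10 counts in every library (13.3%) and 26 with the share of ribosomal RNA as covariate (13.5%). With the replicate number as a block, which takes up the assumed pairing, 27 were lower (11.1%), and 7 of 16 E2F, Rb and kinase genes instead of 5. Apart from the genes named in the text, the block changed no call of a member. With single libraries left out, 15 to 24 were lower (6.58% to 11.1%). The count past a log2 fold change of -1 was 0, and 1 without control replicates 3 and 4. With the covariate, 2 other replication factors and 1 E2F, Rb or kinase gene were higher, instead of 1 and 0, and the cause was not tested. The sign turned for E2f4 with the block (-0.0010), for E2f5 without knockout replicate 1 (-0.0099, up to 0.17 with single libraries left out), for Pold3 without knockout replicate 3 (-0.023, up to 0.097) and for the log2 ratio of Ccne2 to Ccne1 without control replicate 4 (0.019) or knockout replicate 2 (0.028, down to -0.073). Of the 20 mitosis genes, 19 or 20 were lower under each alternative. Of the 46 other replication factors, 14 to 24 were.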
